A study of Homo sapiens with 6 samples.

Results

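The genes examined here are those that build the protein import gates of mitochondria and the carriers of the mitochondrial inner membrane, taken as every gene whose symbol starts with SLC25A, TIMM or TOMM. They number 73 of the 17318 genes listed, of which 47 are SLC25A, 16 TIMM and 10 TOMM genes. A group of 64 had a mean of at least 1 FPKM (a read level corrected for transcript length and for the size of the library) over all libraries and was tested, and the other 9 were too low. RNA came from SNU216, an established human gastric cancer line, in 6 libraries. In 3 libraries the cells carried a control siRNA (siControl), and in the other 3 they carried an siRNA that targets OXTR, the gene of the oxytocin receptor (siOXTR). Both groups were harvested 48 h after transfection and grown in RPMI1640 medium with serum. Nothing in the labels says whether libraries of a group were separate cultures, so the p-values measure only how these libraries vary, and that variation may be technical. All libraries come from 1 cell line.

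Nearly all mitochondrial proteins are made in the cytosol and enter the organelle through the TOM complex of the outer membrane. Proteins with a cleavable presequence then pass the TIM23 complex, whereas carriers, which span the inner membrane several times and have no such signal as a rule, are escorted by small TIM chaperones to the TIM22 complex. The SLC25A carriers exchange ADP for ATP, phosphate, acids, amino acids, cofactors and iron across the inner membrane. This route bypasses the endoplasmic reticulum, through which most carriers of the plasma membrane and of lysosomes are inserted. Some members stand outside the scheme, since SLC25A17 is a peroxisomal carrier, SLC25A46 lies in the outer membrane, TOMM34 is a cytosolic co-chaperone and TIMMDC1 helps to assemble respiratory complex I.

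OXTR, the target, held 39.37, 38.87 and 39.02 FPKM in siControl replicates 1 to 3 and 4.76, 4.65 and 5.34 FPKM in siOXTR replicates 1 to 3, so every library followed its label. The libraries summed to between 417829 and 459595 FPKM, with all siOXTR totals above all siControl totals. Epithelial markers were present, with KRT8, KRT18, KRT19, KRT7, EPCAM and CDH1 above 1 FPKM. The gastric marker CLDN18 had a mean below 0.1 FPKM in both groups, and TFF1 and TFF2 had no entry among the genes listed. The 6 fibroblast markers measured together summed to 1.62 to 2.04 FPKM in siControl and 0.61 to 0.83 FPKM in siOXTR. The 8 blood and endothelial markers summed to 9.83 to 11.4 and 8.85 to 9.58 FPKM, mostly from CD68, a lysosomal protein gene. CDH1 and EPCAM, both membrane protein genes, fell by 1.88 and 1.00 on the log2 scale in siOXTR. The part of these markers in the results was not tested. In bulk RNA, fewer cells of a type and less RNA per cell cannot be told apart.

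Import and carrier genes were mostly a little higher in siOXTR. Of the 64 tested members 38 rose and 1 fell (limma, Benjamini-Hochberg adjusted p under 0.05), that is 59.4% and 1.56%, where 42.2% of all 11550 tested genes were called higher and 17.6% lower. The 25 others stayed short of the threshold and had log2 fold changes between -0.10 and 0.20, with 5 of them below 0. The rises were small, from 1.095-fold to 1.56-fold as ratios of mean FPKM, and the size of every change was below 1 on the log2 scale. The median log2 fold change of the members was 0.21, against 0.13 for all tested genes. In 42 members all siOXTR libraries lay above all siControl libraries, and in 1 member all lay below, where such separation was seen in 45.2% and 19.2% of all tested genes.

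Part of these rises depended on how libraries were put on a common scale. TMM scaling, which divides each library by a trimmed mean of its log ratios to a reference library, moved the median of all tested genes from 0.13 to 0.016, a shift of -0.11. On that scale 20 members were higher and 4 lower, against 19.8% and 24.2% of all tested genes, and the members had a median of 0.10. All 20 were also higher as deposited. The 18 that lost their call had small rises, among them SLC25A5, TIMM23, TIMM44, TIMM22 and TOMM70, and none had another sign after scaling. The 4 lower genes were SLC25A23, SLC25A24, SLC25A43 and TOMM40, of which SLC25A23 alone was lower as deposited. Values of RNA per cell were not analysed here, so neither scale could be preferred.

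**Figure D1:**
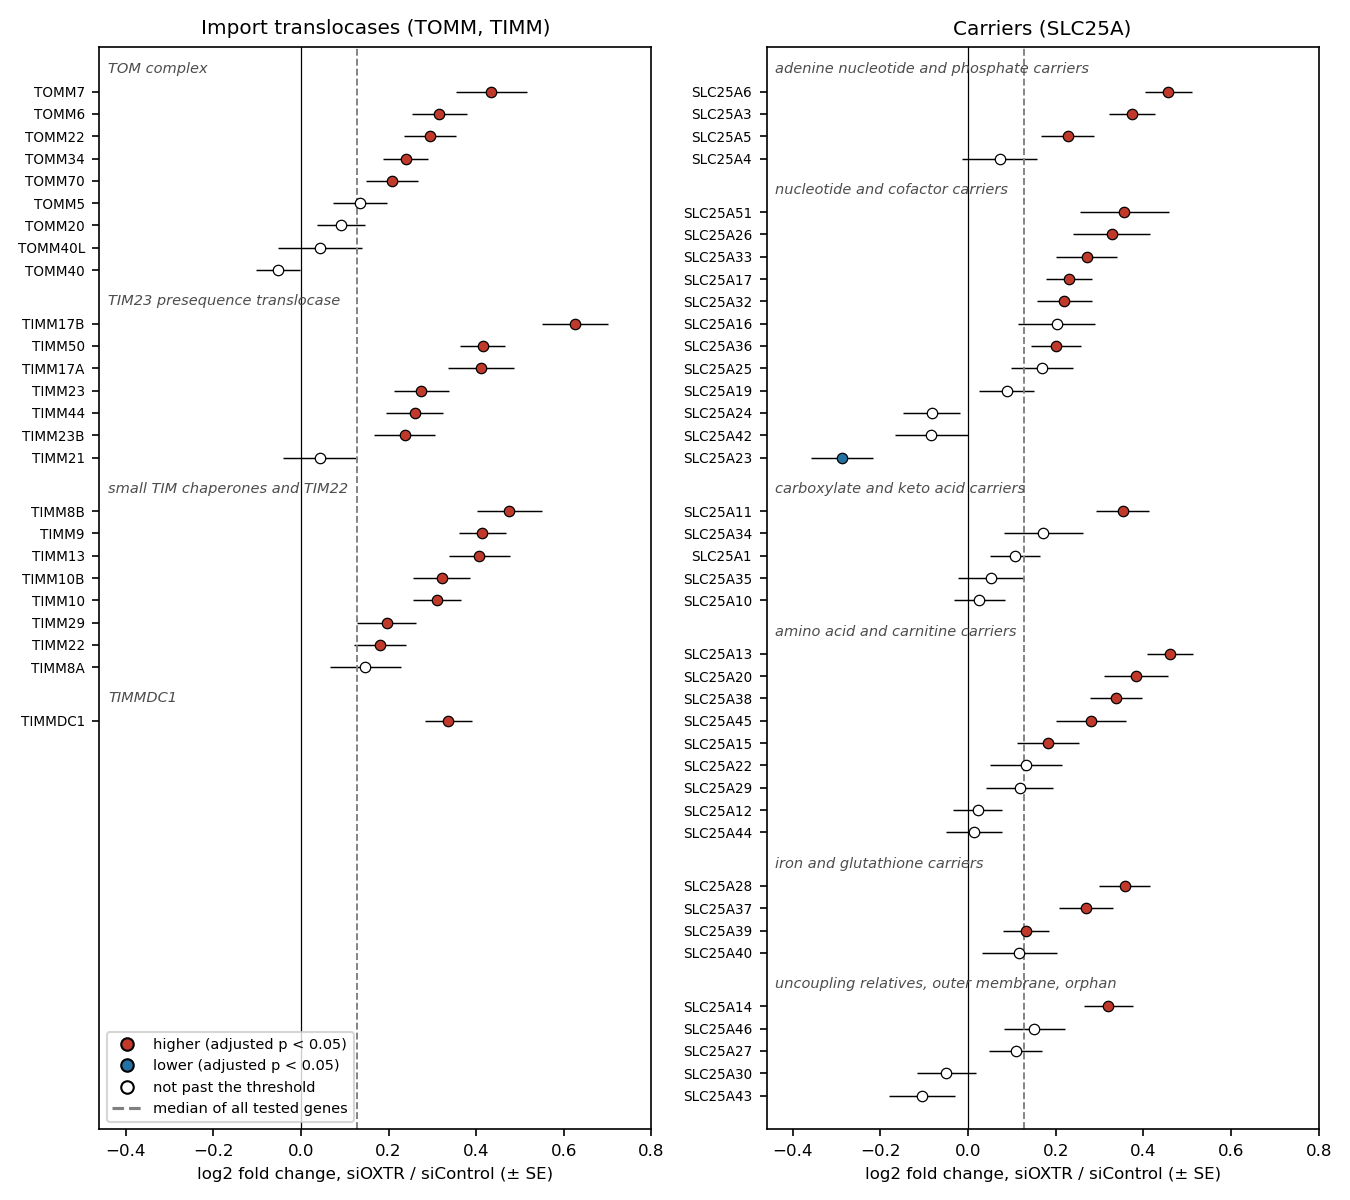
Log2 fold change (siOXTR against siControl, FPKM as deposited) of the 64 tested genes, by role, with bars for the SE of the limma fit. Filled points passed an adjusted p of 0.05, the dashed line marks the median of all tested genes at 0.13, and TIMM17B at 0.63 and SLC25A23 at -0.29 are the extremes; after TMM scaling 18 of the 38 red genes lost their call and TOMM40, SLC25A24 and SLC25A43 were called lower.

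In the TOM complex the genes of the pore and of the presequence receptor were not called, while other subunits rose. TOMM40, the beta-barrel that forms the pore, had 69.49, 72.42 and 71.61 FPKM in siControl and 70.78, 67.89 and 67.07 FPKM in siOXTR. The groups overlapped and its log2 fold change of -0.05 stayed short of the threshold (SE 0.05 and limma adjusted p = 0.373), whereas after TMM scaling it was lower by 0.18 (adjusted p = 0.0124, limma). TOMM20, the receptor for presequences, had 50.57, 48.76 and 52.16 FPKM against 52.99, 51.78 and 56.85 FPKM, and its groups overlapped too (log2 change 0.09, adjusted p = 0.168, limma).

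TOMM22, the central receptor that ties the pores together, rose on both scales. Its siControl libraries held 17.04, 18.67 and 18.75 FPKM and its siOXTR libraries 21.62, 22.84 and 22.98 FPKM, a log2 fold change of 0.29 (SE 0.06 and limma adjusted p = 0.00111). The small subunits TOMM7 and TOMM6, which tune the stability of the complex, rose as well. TOMM7 went from 118.55, 116.09 and 132.45 FPKM to 146.88, 166.27 and 185.52 FPKM, and the siOXTR libraries were spread more widely than the siControl ones. TOMM6 went from 118 ± 9.83 to 147 ± 4.75 FPKM (SD, n = 3 each). TOMM70, the receptor that takes carriers from cytosolic chaperones, rose by 0.21 as deposited (adjusted p = 0.00949, limma), and its call was lost after TMM scaling (0.09, adjusted p = 0.259, limma). TOMM34 rose by 0.24, also lost after TMM scaling. The small subunit TOMM5 (85.4 ± 5.07 and 93.9 ± 5.74 FPKM) stayed short of the threshold, as did TOMM40L, a paralogue of the pore gene at 1.26 ± 0.225 and 1.32 ± 0.172 FPKM. In all, 5 of 9 tested TOMM genes rose (55.6%) and none fell as deposited, against 3 (33.3%) and 1 on the TMM scale. The shares over all tested genes were 42.2% higher and 17.6% lower as deposited, and 19.8% and 24.2% on the TMM scale.

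In the TIM23 translocase 6 of 7 tested genes rose (85.7%, against 42.2% of all tested genes) and none fell. After TMM scaling 3 rose (42.9%, against 19.8%) and none fell. TIMM17B, 1 of the paired genes for the channel subunit next to TIMM23, had the largest rise of all members. It lies on chromosome X from 48893447 to 48898143 (GRCh38). Its libraries held 19.49, 21.28 and 16.76 FPKM in siControl and 29.59, 31.06 and 29.33 FPKM in siOXTR, with a wide gap between the groups. The log2 fold change was 0.63 (SE 0.08 and limma adjusted p = 2.68e-05), which placed it at the 99th percentile of all tested genes. TIMM17A, the other of the pair, went from 30.49, 34.58 and 38.58 to 43.77, 47.11 and 47.38 FPKM, a log2 fold change of 0.41 (adjusted p = 0.000672, limma).

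TIMM50, the receptor that hands presequences from TOM to TIM23, stood at 31.43, 33.15 and 32.62 FPKM in siControl and at 44.46, 42.72 and 43.36 FPKM in siOXTR. Its libraries were tight within each group, and the log2 fold change was 0.41 (SE 0.05 and limma adjusted p = 3.01e-05). TIMM23, the namesake subunit, went from 51.67, 55.06 and 59.03 to 62.52, 69.76 and 68.80 FPKM, and TIMM44, which anchors the import motor, from 18.7 ± 1.67 to 22.6 ± 0.415 FPKM. Both rose as deposited, by 0.27 and 0.26, and neither passed the threshold after TMM scaling (adjusted p = 0.0723 and 0.0967, limma). TIMM23B is a near copy of TIMM23 and the reads of each may have been split between them, so single values are uncertain. TIMM21, a link between TOM and TIM23, had 8.73 ± 0.699 and 9.04 ± 1.07 FPKM and stayed short of the threshold.

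The small TIM chaperones, which shield carriers in the space between the membranes, were grouped with the TIM22 genes. Of these 8 tested genes 7 rose (87.5%, against 42.2% of all tested genes) and none fell. On the TMM scale 5 rose (62.5%, against 19.8%) and none fell. TIMM8B held 36.44, 43.29 and 43.79 FPKM in siControl and 53.64, 58.35 and 60.60 FPKM in siOXTR (log2 change 0.48 with SE 0.07, limma adjusted p = 0.000192). TIMM9 went from 28.16, 27.79 and 29.65 to 37.12, 37.90 and 40.07 FPKM, and its partner in the chaperone ring, TIMM10, from 47.73, 46.02 and 49.20 to 55.97, 61.20 and 60.85 FPKM. No library of one group reached into the other in any of these genes. TIMM13, which pairs with TIMM8A, went from 18.2 ± 1.92 to 24.4 ± 0.790 FPKM, while TIMM8A itself, at 7.65 ± 0.653 and 8.58 ± 0.917 FPKM, stayed short of the threshold. TIMM22, the channel for carriers, rose only from 6.40, 6.47 and 6.45 to 7.62, 7.53 and 7.15 FPKM (log2 change 0.18, adjusted p = 0.0209, limma). Its call was lost without siOXTR replicate 1 (adjusted p = 0.0752, limma), without siOXTR replicate 2 (adjusted p = 0.0739, limma) and after TMM scaling (adjusted p = 0.358, limma). TIMM29, another subunit of the TIM22 complex, rose by 0.20. Its call was lost after TMM scaling and without siControl replicate 1, siControl replicate 3, siOXTR replicate 1 or siOXTR replicate 2. TIMMDC1 rose from 56.2 ± 3.30 to 71.1 ± 0.386 FPKM on both scales.

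**Figure D2:**
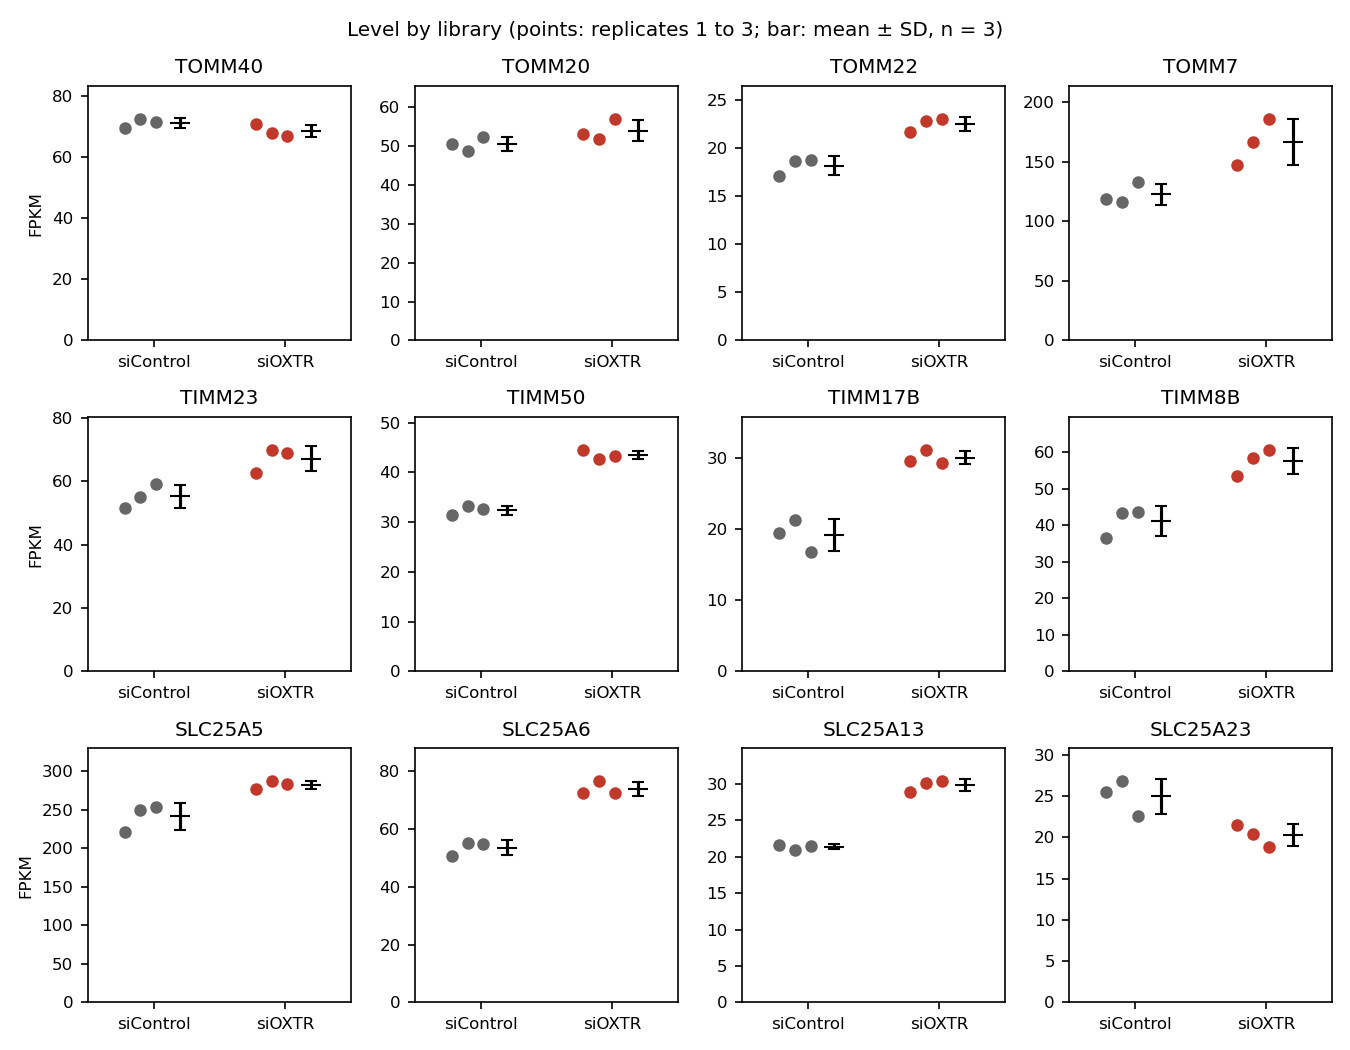
FPKM in each library for 12 genes of the import gates and carriers, with grey points for siControl and red points for siOXTR replicates 1 to 3 and black bars for mean ± SD. TIMM50, TIMM17B, TIMM8B and SLC25A13 separate clearly upward and SLC25A23 downward, while TOMM40 and TOMM20 overlap between groups.

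Promoters of 4 import genes are shown because these genes rose together and because 3 of the 4 hold a short motif found often in the group. The motif searched was CCGGAAG on both strands, the core bound by ETS factors such as GABP, a known regulator of nuclear genes for mitochondria. RefSeq (GRCh38.p14) gave a window of 300 bases, from 250 bases before to 50 after the start, for 63 of the 73 members, and the first listed window was used where a gene had several. The motif occurred in 12 of 23 tested TIMM and TOMM promoters (52.2%) and in 7 of 33 tested SLC25A promoters (21.2%). It was in 21.1% of the promoters of all tested genes and in 10.7% of all 27305 promoters. Among tested members it was in 15 of 35 that rose and in 4 of 21 that did not. That split mixes the families, since TIMM and TOMM genes held the motif more often and also rose more often. Of all tested TIMM and TOMM genes 76% rose, against 48.7% of SLC25A genes. TIMM23 and its near copy TIMM23B both hold the motif. The part of the motif in the rises was not tested. The E-box CACGTG was in 9 of 56 members' promoters and in 10.3% of those of tested genes. Motifs of NRF1, YY1, CREB (CRE), ATF4 (CARE) and the TATA box were searched as well. The NRF1 motif was in 5 of the 23 TIMM and TOMM promoters (21.7%), 3 of the 33 SLC25A promoters and 12.5% of those of tested genes, and each of the others was in at most 2 of the 23. These are matches of letters only, and binding was not measured. In the windows below, written 5′ to 3′ in the direction of the gene, capitals mark CCGGAAG or its reverse complement and, in TIMM10, an E-box that begins at base 250.
TIMM10 (chr11:57530705-57531004, minus strand): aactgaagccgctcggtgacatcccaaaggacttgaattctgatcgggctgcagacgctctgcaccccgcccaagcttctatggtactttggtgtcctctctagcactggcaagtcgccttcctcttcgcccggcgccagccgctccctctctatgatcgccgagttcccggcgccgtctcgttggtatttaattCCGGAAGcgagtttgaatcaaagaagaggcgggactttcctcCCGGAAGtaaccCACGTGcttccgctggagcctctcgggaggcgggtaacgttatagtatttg
TIMM13 (chr19:2427537-2427836, minus strand): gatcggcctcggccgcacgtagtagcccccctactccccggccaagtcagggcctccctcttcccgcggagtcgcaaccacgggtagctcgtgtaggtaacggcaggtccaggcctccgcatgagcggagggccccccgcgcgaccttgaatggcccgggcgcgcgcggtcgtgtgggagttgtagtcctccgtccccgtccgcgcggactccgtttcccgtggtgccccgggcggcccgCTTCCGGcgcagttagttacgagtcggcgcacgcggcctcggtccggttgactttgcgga
TOMM22 (chr22:38681707-38682006, plus strand): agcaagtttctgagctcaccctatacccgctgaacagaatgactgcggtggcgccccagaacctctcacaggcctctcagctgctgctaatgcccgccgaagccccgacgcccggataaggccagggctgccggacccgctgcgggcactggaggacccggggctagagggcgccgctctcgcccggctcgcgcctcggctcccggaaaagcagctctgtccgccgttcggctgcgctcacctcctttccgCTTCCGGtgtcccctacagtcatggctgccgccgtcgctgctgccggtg
TIMM17B (chrX:48897719-48898018, minus strand): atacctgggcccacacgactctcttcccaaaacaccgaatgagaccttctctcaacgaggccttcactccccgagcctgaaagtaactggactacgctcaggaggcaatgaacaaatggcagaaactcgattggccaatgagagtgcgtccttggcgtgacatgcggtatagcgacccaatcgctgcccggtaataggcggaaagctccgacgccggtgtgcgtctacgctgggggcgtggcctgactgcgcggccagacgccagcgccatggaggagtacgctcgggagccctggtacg
TIMM10, TIMM13 and TOMM22 rose by 0.31, 0.41 and 0.29 on the log2 scale. TIMM17B, with the largest rise of the members, has none of the motifs searched in its window, which says only that these letters are not there. CCGGAAG was also absent from the windows of TIMM17A, TIMM50, TIMM9 and TOMM7, which rose by 0.41, 0.41, 0.41 and 0.43. It was present in that of TOMM20, which was not called.

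Of 39 tested SLC25A genes 19 rose and 1 fell, and their median log2 fold change was 0.17. The share that rose, 48.7%, is near the 42.2% of all tested genes. TMM scaling turned the counts into 8 higher and 3 lower, and the 20.5% higher is again near the 19.8% of all tested genes. The carriers of the ATP supply include SLC25A5, which had the highest level of all members. This ADP/ATP exchanger held 221.03, 249.26 and 253.80 FPKM in siControl and 276.29, 286.96 and 283.48 FPKM in siOXTR (log2 change 0.23, adjusted p = 0.00693, limma), a call lost after TMM scaling. Its paralogue SLC25A6, on chromosome X from 1386152 to 1392724, rose by 0.46 (SE 0.05 and limma adjusted p = 2.38e-05), from 50.49, 55.12 and 54.74 to 72.45, 76.48 and 72.23 FPKM. SLC25A4, the form of heart and muscle, was low at 2.14 ± 0.260 and 2.30 ± 0.195 FPKM and stayed short of the threshold. SLC25A3, the phosphate carrier, went from 30.57, 32.66 and 32.98 to 41.76, 41.96 and 41.81 FPKM, with the siOXTR libraries almost identical (log2 change 0.37, adjusted p = 8.50e-05, limma). SLC25A5 and SLC25A6 are close copies with many pseudogenes, so reads may have been shared among them.

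Amino acid carriers included the largest carrier rise. SLC25A13 (citrin), the aspartate/glutamate carrier of the malate-aspartate shuttle, lies on chromosome 7 from 96120220 to 96322147. It held 21.64, 20.98 and 21.49 FPKM in siControl and 28.85, 30.18 and 30.37 FPKM in siOXTR (log2 change 0.46 with SE 0.05, limma adjusted p = 1.49e-05). Its paralogue SLC25A12 (aralar) had 14.78, 14.08 and 15.16 FPKM against 14.78, 15.16 and 14.78 FPKM, with nearly equal groups (log2 change 0.02, adjusted p = 0.748, limma). SLC25A20, which carries acylcarnitines for fatty acid oxidation, went from 10.0 ± 1.03 to 13.4 ± 0.560 FPKM, and SLC25A38, the glycine carrier for haem synthesis, from 17.3 ± 1.13 to 22.1 ± 0.327 FPKM. Both were higher on both scales. The tested amino acid and carnitine carriers counted 5 rises (55.6%, against 42.2% of all tested genes) and no fall among 9. After TMM scaling 3 rose (33.3%, against 19.8%) and none fell. Of the 5 rises as deposited that of SLC25A15, the ornithine carrier, was the weakest (log2 change 0.18, adjusted p = 0.0401, limma). Its call was lost after TMM scaling and without siControl replicate 1 or 3 or siOXTR replicate 1 or 2.

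Among 5 tested carboxylate carriers SLC25A11 alone rose (20%, against 42.2% of all tested genes). This oxoglutarate/malate carrier, the other arm of the malate-aspartate shuttle, had 18.90, 20.46 and 18.37 FPKM in siControl and 23.69, 26.11 and 24.74 FPKM in siOXTR (log2 change 0.35, adjusted p = 0.000420, limma). SLC25A1, which exports citrate for lipid synthesis, had 58.0 ± 3.85 and 62.5 ± 0.847 FPKM, and SLC25A10, the dicarboxylate carrier, 25.1 ± 1.62 and 25.5 ± 0.383 FPKM. Neither passed the threshold. Iron and glutathione carriers had 3 rises among 4 (75%), of which 1 was called after TMM scaling (25%, against 19.8% of all tested genes). SLC25A28 (mitoferrin 2) rose from 25.80, 25.11 and 26.44 to 30.92, 34.73 and 34.39 FPKM on both scales, and SLC25A37 (mitoferrin 1) from 9.05 ± 0.529 to 11.1 ± 0.190 FPKM as deposited. SLC25A39, a glutathione carrier at 84.4 ± 4.25 and 92.5 ± 0.108 FPKM, barely passed (log2 change 0.13, adjusted p = 0.0467, limma). Its call was lost without siControl replicate 1 (adjusted p = 0.125, limma) or 3 (adjusted p = 0.0937, limma) and without siOXTR replicate 1 (adjusted p = 0.0972, limma), 2 (adjusted p = 0.119, limma) or 3 (adjusted p = 0.112, limma), and after TMM scaling.

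Carriers of nucleotides and cofactors held the only fall of the members. SLC25A23, a calcium-regulated ATP-Mg/phosphate carrier, lies on chromosome 19 from 6436079 to 6465203. It had 25.44, 26.79 and 22.59 FPKM in siControl and 21.45, 20.41 and 18.82 FPKM in siOXTR, and all siOXTR libraries lay below the lowest siControl library. The log2 fold change was -0.29 (SE 0.07 and limma adjusted p = 0.00433) as deposited and -0.41 after TMM scaling (adjusted p = 0.000463, limma), and the call held without each library in turn. Its relatives SLC25A24 and SLC25A25, at log2 fold changes of -0.08 and 0.17, stayed short of the threshold as deposited. Of the 12 tested genes of this group 6 rose as deposited (50%, near the 42.2% of all tested genes). After TMM scaling none was higher, where 19.8% of all tested genes were. The rises as deposited included SLC25A51, the NAD carrier, from 5.26 ± 0.957 to 6.96 ± 0.536 FPKM. Another was SLC25A26, the S-adenosylmethionine carrier, from 9.78 ± 1.33 to 12.5 ± 0.975 FPKM. Among relatives of the uncoupling proteins and orphan carriers SLC25A14 rose from 9.58 ± 0.311 to 12.2 ± 0.0600 FPKM on both scales, and the 4 others tested stayed short of the threshold as deposited.

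The 9 members below the mean of 1 FPKM were SLC25A2, SLC25A18, SLC25A21, SLC25A31, SLC25A41, SLC25A47, SLC25A52, SLC25A53 and TOMM20L. Their values lay between 0 and 0.64 FPKM in single libraries. SLC25A31, the ADP/ATP carrier of testis, reached at most 0.04 FPKM and SLC25A47, a liver carrier, 0.03 FPKM.

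**Figure D3:**
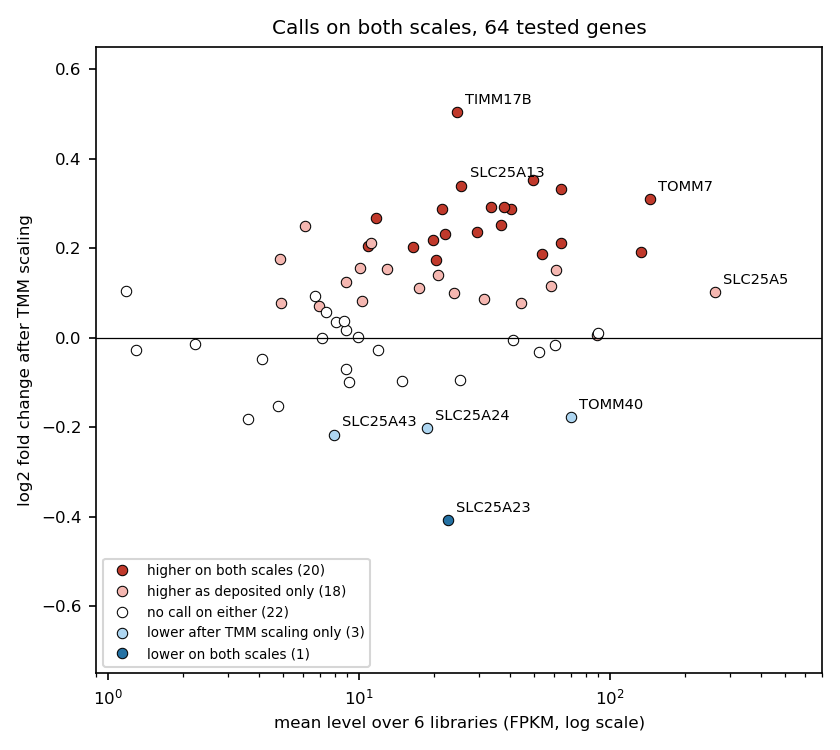
Log2 fold change after TMM scaling against the mean level over 6 libraries (FPKM, log axis) for the 64 tested genes, coloured by their call on the deposited and TMM scales. A group of 20 genes was higher on both scales and 18 as deposited only, while SLC25A23 was lower on both and TOMM40, SLC25A24 and SLC25A43 were lower after TMM scaling only.

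Ratios of partner genes within a library do not depend on scaling, and 17 pairs were compared, chosen after the values were seen. An exact permutation test of 3 against 3 (two-sided, on log2 ratios) cannot give a p below 0.1, and the smallest adjusted p over the pairs was 0.17, so none of the pairs could pass. The ratio of SLC25A13 to SLC25A12 was 1.46, 1.49 and 1.42 in siControl and 1.95, 1.99 and 2.05 in siOXTR (exact p = 0.1). That of SLC25A6 to SLC25A5 was 0.228, 0.221 and 0.216 in siControl and 0.262, 0.267 and 0.255 in siOXTR (exact p = 0.1). In both pairs the groups were apart and tight, but reads may have been shared between SLC25A5 and SLC25A6, so their ratio is uncertain. Over all 17 pairs the groups were apart in 10 and overlapped in 7. TOMM22 per TOMM40 went from 0.255 ± 0.00867 to 0.328 ± 0.0199 and TOMM7 per TOMM40 from 1.72 ± 0.124 to 2.43 ± 0.346 (SD, n = 3 each, exact p = 0.1 for both). By contrast the ratio of TIMM17B to TIMM17A overlapped between groups (0.639, 0.615 and 0.434 against 0.676, 0.659 and 0.619, exact p = 0.2), as did that of SLC25A39 to SLC25A40 (exact p = 1).

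**Figure D4:**
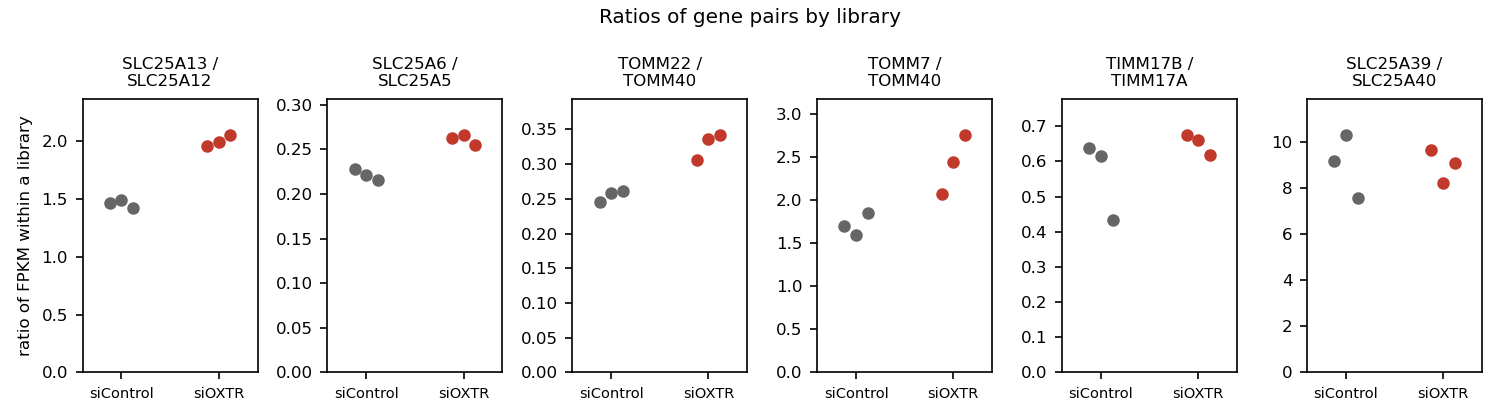
Ratio of FPKM of 6 gene pairs within each library, grey for siControl and red for siOXTR replicates 1 to 3, on axes that start at 0. The groups are apart for SLC25A13 per SLC25A12, SLC25A6 per SLC25A5, TOMM22 per TOMM40 and TOMM7 per TOMM40, and overlap for TIMM17B per TIMM17A and SLC25A39 per SLC25A40.

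Solute carriers outside the SLC25A family, most of which are inserted at the endoplasmic reticulum, gave other counts in the same fit. Of 156 tested 12 were higher and 108 lower (7.69% and 69.2%), and their median log2 change was -0.37, where the SLC25A genes had 19 higher and 1 lower of 39 and a median of 0.17. After TMM scaling the other carriers had 6 higher and 120 lower, with medians of -0.47 for them and 0.08 for SLC25A genes. A log2 fall of at least 1 was seen in 10 of the other carriers and in no SLC25A gene. Among the 12 higher, SLC4A1AP, SLC7A6OS and SLC2A4RG are named after a neighbour or partner and are not carriers. With only symbols of the plain carrier form, 9 of 149 tested were higher and 107 lower, with a median of -0.40. The largest rise of the 12 was in SLC16A8, from 1.46 to 2.49 FPKM in mean, (not called after TMM scaling), and the next in SLC3A2, the heavy chain of amino acid exchangers, from 124.8 to 169.7 FPKM in mean. Summed FPKM of the SLC25A genes stood to that of the other carriers as 0.310, 0.316 and 0.333 in siControl and as 0.474, 0.489 and 0.488 in siOXTR. The difference between the families was not tested, since their members were chosen with results known.

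**Figure D5:**
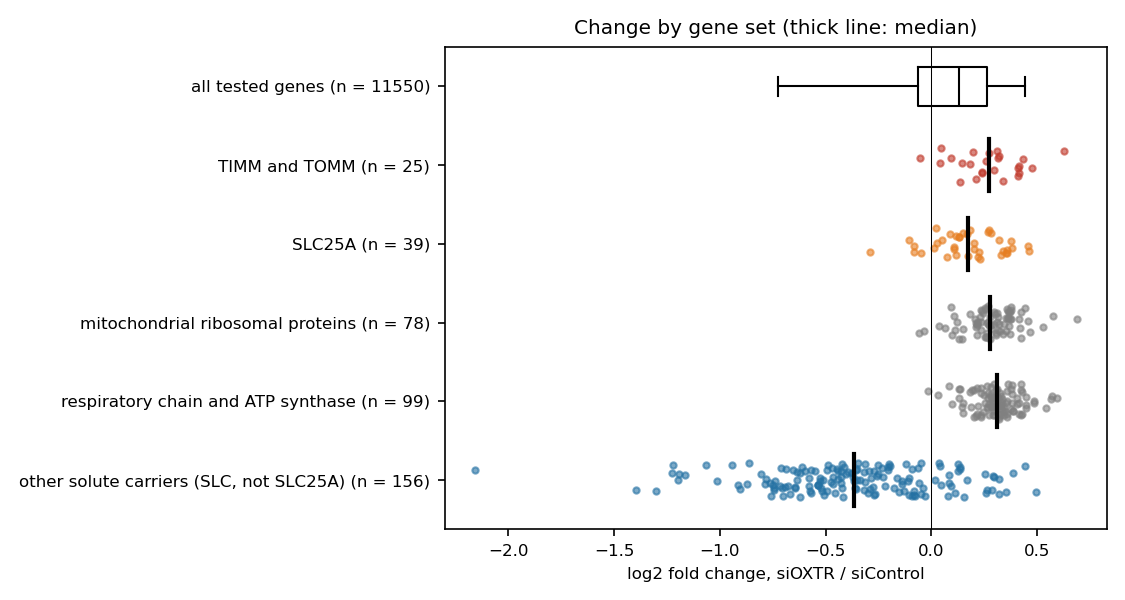
Log2 fold change (FPKM as deposited) of single genes by set, with a thick line at each median, and for all 11550 tested genes a box of the quartiles with whiskers from the 5th to the 95th percentile. The medians of TIMM and TOMM genes (0.27) and SLC25A genes (0.17) lie above 0 and that of the other solute carriers (-0.37) below it; after TMM scaling they were 0.15, 0.08 and -0.47.

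Other gene groups of the mitochondrion also had many rises and almost no falls. Of all tested genes 42.2% were called higher and 17.6% lower as deposited, and 19.8% and 24.2% after TMM scaling. Of 25 tested TIMM and TOMM genes 76% rose and none fell, or 12 and 1 on the TMM scale. Mitochondrial ribosomal protein genes counted 66 higher (84.6%) and none lower of 78 (median 0.28), and 34 (43.6%) and 1 after TMM scaling. Respiratory chain and ATP synthase genes counted 88 higher (88.9%) and none lower of 99 (median 0.31), and 49 (49.5%) and 1 after TMM scaling.

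Genes that work with the gates were listed by function, beside 42.2% of all tested genes called higher as deposited and 19.8% after TMM scaling. In the import motor, which pulls presequence proteins into the matrix, 5 of 7 tested genes rose and 1 fell, or 3 and 1 after TMM scaling. PAM16 went from 24.1 to 32.3, HSPA9, the motor's Hsp70, from 102 to 127, and GRPEL2 from 8.72 to 11.3 FPKM in mean. GRPEL1, the main exchange factor of that Hsp70, fell instead, from 37.7 to 32.6 FPKM in mean (log2 change -0.20, adjusted p = 0.00620, limma). Among 7 genes of the outer membrane sorting machinery and porins 4 rose and none fell, or 3 and none after TMM scaling, led by MTX2 (0.49) and VDAC2 (0.31). Of 7 genes of presequence processing and insertion 3 rose (42.9%, near the 42.2% of all tested genes), or 2 after TMM scaling, the largest change being that of the inner membrane peptidase gene IMMP1L (0.53). Of 11 genes of the intermembrane relay and of MICOS, which shapes cristae, 6 rose and 1 kept a call after TMM scaling, IMMT (0.36). Of 12 chaperones and proteases of the mitochondrion, not all of them in the matrix, 5 rose (41.7%, near the share of all tested genes). After TMM scaling 1 kept its call, CLPB (0.30). HSPD1, the matrix chaperonin, had 405 and 415 FPKM in mean and stayed short of the threshold.

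Among mitochondrial transporters and regulators with symbols other than SLC25A, 17 were tested. Of these 10 rose (58.8%) and 2 fell, or 3 (17.6%) and 2 after TMM scaling. The list holds UCP2, UCP3, MTCH1 and MTCH2, relatives of the SLC25A carriers that the symbol rule leaves out. MTCH2 rose by 0.20 as deposited only, and UCP2, UCP3 and MTCH1 stayed short of the threshold. Of all tested genes 42.2% were higher and 17.6% lower as deposited, and 19.8% and 24.2% after TMM scaling. MICU2 and SMDT1, subunits of the calcium uniporter, rose by 0.44 and 0.40, and SFXN5 by 0.41. Of 12 tested regulators of mitochondrial gene expression 6 rose (50%) and 1 fell, or 3 (25%) and 1 after TMM scaling. Both shares of rises are near those of all tested genes. The fall was that of MYC (log2 change -0.16, and -0.28 after TMM scaling). ESRRA, a nuclear receptor, went from 29.4 to 39.5 FPKM in mean, and ATF5, a factor of the mitochondrial stress response, from 6.77 to 9.16 FPKM. GABPB1, a subunit of GABP, rose by 0.33, whereas NRF1 had a log2 fold change of 0.03 and stayed short of the threshold. In the translocon of the endoplasmic reticulum 8 of 12 genes fell and 1 rose, or 10 and 1 on the TMM scale. SEC63, SEC61A1 and TRAM2 fell by 1.02, 0.87 and 0.94 on the log2 scale, while SEC61B rose by 0.42. SEC61G, at a log2 fold change of -0.05, stayed short of the threshold.

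Transcript length moved with these changes. With lengths from GENCODE release 29, the tested genes were put into 4 bins of about equal size. Those of the shortest bin (up to 1924 bases) were at a median log2 change of 0.21 and were called higher in 55.8% of cases, against 0.06 and 30.8% for the longest bin (from 4684 bases). Tested members had a median transcript length of 2204.5 bases, against 3008 for all tested genes, and 26 of the 64 lay in the shortest bin. Of those 26, 20 rose, and in the next bin (1925 to 3008 bases) 13 of 22 members rose where 44.8% of all tested genes did. In the third bin (3009 to 4683 bases) 4 of 14 members rose and 1 fell, where 37.3% of all tested genes rose. Over the 64 members, which share libraries and are no replicates, the correlation of log2 length with log2 fold change was r = -0.44 and rho = -0.44, given as a description. Over the 11480 tested genes with a length it was r = -0.21 and rho = -0.25. The part of length in the members' rises was not tested.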

How the data were processed

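The authors deposited FPKM values, one file for each library, per the file headers, with 2 decimals. The submitters' processing notes name GRCh38.p13. For the aligner, quantifier, annotation and filters the sources used here give nothing. The depth of the libraries is unknown. Low FPKM values were searched for steps of whole fragments, and the best coherence was 0.174 to 0.286 of a possible 1, at depths near the lower edge of the search, so none was taken. FPKM is relative within a library.

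Because the values are FPKM, no count model was used. Genes averaging 1 FPKM or more entered a two-sided limma fit (3.58.1, R 4.3.3) of log2(FPKM + 1) on group alone, with mean trend and robust prior, adjusted over all 11550 tested genes by Benjamini-Hochberg at 0.05. The procedure was tested on simulated data with few genes changed, in both directions, which does not bear on the scale that fits these libraries. The pseudocount makes changes of low genes look smaller. Values with ± are mean and SD of 3 libraries. Any pair of libraries had equal values in at most 0.606% of the genes tested, and each counted as 1 replicate. TMM scaling was coded without read weights (trims of 30% and 5% on each side). Alternatives were other pseudocounts, filters, scalings and priors, a replicate block, and leaving out each library.

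Members and lists were chosen with earlier results of these data known. Named by rule were the core TOM, TIM and ADP/ATP or phosphate carrier genes, up to 3 called genes per role or list with the largest change, the 5 largest rises, all falls and the genes below the filter. Other genes were named after their values were seen.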

Additional observations from a re-analysis of the deposited data

How the results depend on the processing

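As deposited, 38 members were higher and 1 lower, with 4869 of all tested genes higher and 2036 lower and a members' median log2 fold change of 0.21. The scaling mattered most. TMM and median-of-ratios scaling each gave 20 members higher and 4 lower and a median of 0.10, with 2282 and 2285 of all tested genes higher, and rescaling each library to the same total gave 29 members higher and 2 lower, a median of 0.14 and 2942 genes higher. These scalings divide the siOXTR libraries by larger factors, which lowers all their genes alike. The median was 0.19 with no filter, where more genes enter, and 0.23 with a mean of at least 5 FPKM, where genes leave. Leaving out single libraries gave 34 to 40 members higher and 1 lower, medians of 0.21 to 0.23, and 3980 to 4671 genes higher and 1820 to 2028 lower. Pseudocounts of 0.1 and 0.5 changed no member's call. With no filter SLC25A15 and SLC25A39 lost their calls, and SLC25A39 lost its call with neither trend nor robust prior too. No called member changed sign under any of these settings. The replicate block gave 41 members higher and 1 lower, with 5100 and 2105 of all tested genes, and it lost no member's call. Same-numbered libraries correlated in their deviations at 0.107, 0.0042 and 0.160, and siOXTR replicate 1 correlated best with siControl replicate 2 (0.208), so the numbers were not taken to pair the libraries. An exact test of 3 against 3 cannot reach 0.05, and unknown depth limits what can be said of low genes.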
